A study of Mus musculus with 24 samples.

Results

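The cartilage collagens form the fibrils of the cartilage matrix, and the 7 genes Col2a1, Col9a1, Col9a2, Col9a3, Col11a1, Col11a2 and Col27a1 encode their chains. The genes were chosen by name, out of 21887 protein-coding genes. Around each gene, every H3K27ac peak within the gene body or 50 kb on either side was taken, which gave 108 of the 134222 peaks in the 4 deposited lists. These peaks merged by overlap into 40 of 49367 regions. H3K27ac, acetylation of lysine on histone H3, marks active promoters and enhancers, and was mapped here by chromatin immunoprecipitation and sequencing (ChIP-seq).

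The samples were limb buds of mouse embryos, and each group had 1 library: Sox9null at embryonic day E11.5, Sox9cKO at E12.5, control at E11.5 and control at E12.5. Sox9 encodes the transcription factor that cartilage formation requires. The alleles, the driver of the Sox9cKO deletion, the genotype of the controls, the limb (fore or hind) and the number of embryos pooled were not given in the sources used here. Of 24 samples in the series, the 20 without a peak list were not analysed here. With no replicates no difference was tested, and every value below describes these libraries alone.

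The peak lists of the Sox9-deficient samples carry each other's group in their file names, so they are called here, by sample title, the Sox9null-labelled list and the Sox9cKO-labelled list. Both lacked peaks over a stretch of the Sox9 gene, the longest uncovered run being 2453 bp in the Sox9null-labelled list and 2533 bp in the Sox9cKO-labelled list, against 188 bp in control E11.5 and 1037 bp in control E12.5, so this check of the targeted gene does not tell them apart. The Sox9null-labelled list had 28419 peaks with a median width of 1778 bp and the Sox9cKO-labelled list had 36937 peaks of 1332 bp, against 36045 peaks of 1141 bp in control E11.5 and 32821 peaks of 1707 bp in control E12.5. The depth in reads is unknown. All 6 limb mesenchyme markers had a promoter peak in every list, and none of 5 genes of inactive tissues had one. Over the forelimb gene Tbx5 and 20 kb each side, peaks covered 0 kb in the Sox9null-labelled list and 32.6 kb in the Sox9cKO-labelled list, against 31.7 kb in control E11.5 and 3.76 kb in control E12.5. Peaks covered 2.48 and 10.5 kb in the Sox9null- and Sox9cKO-labelled lists, against 6.16 and 3.48 kb in control E11.5 and control E12.5, over 5 skeletal muscle markers, and 4.75 and 12.8 kb against 13.5 and 5.14 kb over 5 endothelial markers. In the same order of lists, the 5 genes of inactive tissues had 14.5, 10.97, 12.2 and 13.8 kb. In every list that was more than the muscle markers had. The 4 surface ectoderm markers had 2.99, 7.07, 5.61 and 8.46 kb, and the 2 hindlimb genes 55.98, 49.4, 45.7 and 52.7 kb. The part of these differences in the results below was not tested.

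Type II collagen, a trimer of the Col2a1 chain, is the main fibril collagen of cartilage. Type XI collagen, built from the Col11a1 and Col11a2 chains with a Col2a1 product, sits within the same fibrils and limits their width, and type IX collagen, built from the Col9a1, Col9a2 and Col9a3 chains, decorates their surface. Type XXVII, the Col27a1 product, is a further fibrillar collagen of cartilage. SOX9 acts on several of these genes together with SOX5 and SOX6, and the classical example is an enhancer in the first intron of Col2a1.

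Starts of 5 of the 7 genes are listed in the RefSeq promoter table of build GRCm38.p6, with 2 starts for Col9a1; Col2a1 and Col9a3 are not among its entries, and there both gene ends were examined. The promoters below, from 250 bases before the start to 50 after it, are those in which the peaks behaved differently. None of the bases around the first listed Col9a1 start lay under a peak in any list, and all of those around the second did in every list. The Col9a2 promoter was fully under a peak except in the Sox9cKO-labelled list, where it was free of peaks, and the Col11a2 promoter was free of peaks in all 4 lists. Capitals mark matches to the 5 motifs searched on both strands: ACAAAG and ACAATG, cores that SOX proteins bind, the GC box GGGCGG, the TATA box TATAAA, and CCAAT.
Col9a1, first start (chr1:24177360-24177659, + strand): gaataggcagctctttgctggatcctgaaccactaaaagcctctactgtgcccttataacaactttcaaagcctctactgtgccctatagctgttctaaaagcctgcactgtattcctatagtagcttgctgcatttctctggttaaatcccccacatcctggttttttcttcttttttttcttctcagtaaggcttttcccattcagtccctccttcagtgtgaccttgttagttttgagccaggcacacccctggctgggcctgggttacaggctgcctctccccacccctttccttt
Col9a1, second start (chr1:24194953-24195252, + strand): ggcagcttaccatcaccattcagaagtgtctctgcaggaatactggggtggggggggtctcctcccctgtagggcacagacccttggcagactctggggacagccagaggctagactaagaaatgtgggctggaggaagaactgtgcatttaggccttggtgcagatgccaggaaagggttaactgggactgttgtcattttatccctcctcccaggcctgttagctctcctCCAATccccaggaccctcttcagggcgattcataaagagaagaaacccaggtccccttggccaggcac
Col9a2 (chr4:121039316-121039615, + strand): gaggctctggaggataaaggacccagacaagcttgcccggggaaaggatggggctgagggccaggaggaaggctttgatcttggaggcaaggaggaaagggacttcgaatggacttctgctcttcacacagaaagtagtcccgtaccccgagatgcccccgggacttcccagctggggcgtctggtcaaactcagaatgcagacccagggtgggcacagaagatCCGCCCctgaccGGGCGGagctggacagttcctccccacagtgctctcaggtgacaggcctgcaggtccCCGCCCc
Col11a2 (chr17:34038888-34039187, + strand): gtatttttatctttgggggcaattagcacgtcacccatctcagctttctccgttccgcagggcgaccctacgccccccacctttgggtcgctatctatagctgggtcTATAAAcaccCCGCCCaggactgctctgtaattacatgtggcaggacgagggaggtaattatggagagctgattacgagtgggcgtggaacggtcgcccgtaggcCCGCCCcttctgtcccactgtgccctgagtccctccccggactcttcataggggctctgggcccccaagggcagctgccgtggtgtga

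The first Col9a1 promoter held none of the motifs and the second, the acetylated one, held 1 CCAAT, which 37.4% of 32851 promoters hold. G and C made up 47.3% of the first and 55.7% of the second, against a median of 52.7% over all promoters. The Col9a2 promoter held 3 GC boxes. The Col11a2 promoter held 2 GC boxes and a match to the TATA box, at -143 bp from the listed start. GC boxes occur in 35.7% of all promoters and TATA boxes in 13.6%. Neither SOX core was found in any of the 6 listed promoters of the collagen genes, while ACAAAG occurs in 18.7% and ACAATG in 12.6% of all promoters. That says only that these letters are not within these windows.

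**Figure D1:**
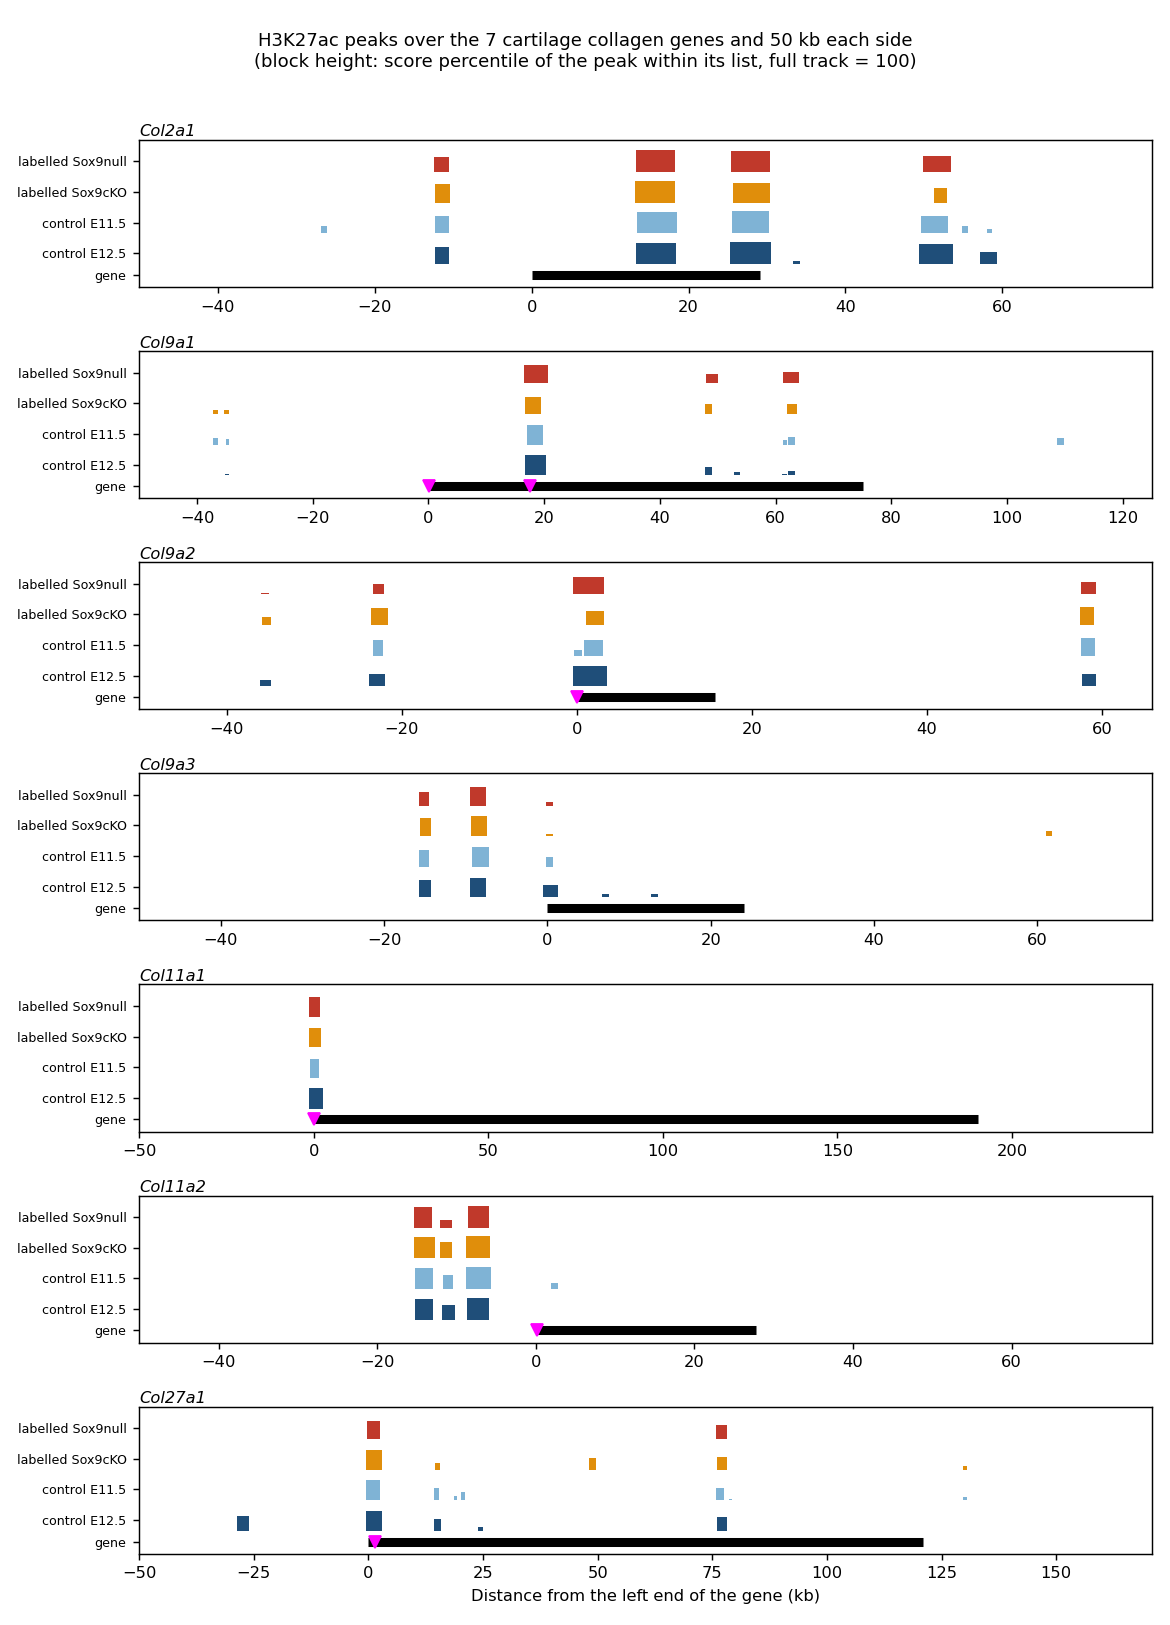
Peaks over each of the 7 genes and 50 kb each side, by distance from the left end of the gene in kb, with 1 track per list and the gene as a black bar. Block height is the percentile of the peak's score within its list, and triangles mark listed starts. Col11a1 had a single region, at its start, and Col9a1 was marked at its second start and not at its first.

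Each of the 6 merged regions at a promoter had a peak in every list, those of both Sox9-deficient samples included, although at Col9a2 the peak of the Sox9cKO-labelled list did not reach the start. Of the 40 regions, 18 had a peak in all 4 lists, and over the genome 40.1% of regions did. By position, 6 regions were promoters, 14 lay elsewhere in a gene body, 8 at an end of a neighbouring gene and 12 elsewhere in a flank. All 6 promoter regions and 7 of the 8 regions at neighbouring genes were in all 4 lists, against 3 of 14 in gene bodies and 2 of 12 in the remaining flanks. Over the genome, 10184 of the 19792 regions in all 4 lists lay at a gene start. The share in all 4 lists was not computed by position over the genome. Whether this split is particular to the collagen genes is therefore unknown. Exons and introns could not be told apart, because no exon annotation was used.

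Regions in a single list numbered 15, and 34.7% of all regions were of that kind. None of the 15 was in the Sox9null-labelled list, 2 were in the Sox9cKO-labelled list, 7 in control E11.5 and 6 in control E12.5. Over the genome, 3.26%, 12.1%, 10.6% and 8.71% of regions were in those lists alone, in the same order. Their peaks were weak and narrow, with a median score percentile of 23.6 within their lists and a median width of 882 bp, against 75.7 and 2066 bp for the peaks of the 18 shared regions. The score is the authors' own value, and its percentile says where a peak stands in its own list and not how strong it is beside a peak of another list. Exactly 1 region was in both controls and in neither Sox9-deficient list, where 1.64% of all regions were, and none was in both Sox9-deficient lists and neither control, where 1.15% were.

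A promoter peak, meaning a peak within 1000 bp of a listed start or, for Col2a1 and Col9a3, of a gene end, was present in all 4 lists at 5 of the 7 genes (Col2a1, Col9a1, Col9a3, Col11a1 and Col27a1), against 50.8% of all genes. Col9a2 lacked it in the Sox9cKO-labelled list alone, and Col11a2 had none in any list.

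Col2a1 (chromosome 15, 97975602 to 98004724, mm10) was the most widely acetylated of the 7 genes relative to the length examined, with 11.8% of its 129 kb window under peaks in the Sox9null-labelled list and 10.4% in the Sox9cKO-labelled list, against 13.5% in control E11.5 and 15.2% in control E12.5. Within the gene itself the lists hardly differed, with 8.70 and 8.66 kb covered in the Sox9null- and Sox9cKO-labelled lists and 8.76 and 8.90 kb in control E11.5 and control E12.5. That length sat in 2 broad regions, which ranked among the widest peaks of every list (from the 96.5th to the 99.0th percentile of width). One lay 13.2 to 18.5 kb from the left gene end, and its peak was 5020 bp wide in the Sox9null-labelled list, 5177 bp in the Sox9cKO-labelled list, 5114 bp in control E11.5 and 5066 bp in control E12.5. The other covered the right gene end, where mouse Col2a1 starts, and its peak was 4886 and 4691 bp wide in the Sox9null- and Sox9cKO-labelled lists, against 4820 and 5279 bp in control E11.5 and control E12.5.

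Both Sox9-deficient lists had less of the Col2a1 window under peaks than both controls. Peaks covered 15.3 kb in the Sox9null-labelled list and 13.5 kb in the Sox9cKO-labelled list, against 17.5 kb in control E11.5 and 19.6 kb in control E12.5. Col2a1 was the only 1 of the 7 genes with that order, which 6.35% of all genes had, and no member had the reverse order, which 16% had. Regions narrower in both Sox9-deficient lists, or missing from them, lay in both flanks. On the left, a region of 769 bp that began at -26.8 kb from the left gene end was in control E11.5 alone. The others lay upstream of the gene, beyond its right end, where the nearest, of 901 bp, was in control E12.5 alone. A region 20.3 to 24.6 kb beyond that end was covered over 3486 bp in the Sox9null-labelled list and 1634 bp in the Sox9cKO-labelled list, against 3545 bp in control E11.5 and 4314 bp in control E12.5. Its score percentile was 69.0 and 63.7 in the Sox9null- and Sox9cKO-labelled lists, against 75.9 and 87.2 in control E11.5 and control E12.5.

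The single collagen region found in both controls alone was next to it, 28.0 to 30.3 kb beyond the right end of Col2a1 (chr15:98032732-98034976). It was 746 bp wide in control E11.5, at the 17.5th score percentile, and 2245 bp wide in control E12.5, at the 52.5th. Between these regions a peak of 789 bp, at the 33.6th score percentile, was in control E11.5 alone. With 20 kb on each side, which leaves out all of these but the 901 bp region, Col2a1 had 11.8 kb in each Sox9-deficient list against 11.6 kb in control E11.5 and 13.1 kb in control E12.5, and the order was gone. With the upper 50% of each list it was also gone, at 15.3 and 13.5 kb in the Sox9null- and Sox9cKO-labelled lists against 15.2 and 18.7 kb in control E11.5 and control E12.5. The order held with equally many top peaks from each list, after scaling to total covered length, and without peaks at ends of other genes. With 5 kb each side it held narrowly, at 9.91 and 9.87 kb against 9.93 and 11.1 kb in the same order of lists. A flank region -12.4 to -10.3 kb from the left end of Col2a1 lay at an end of Tmem106c, a membrane protein gene, and was in all 4 lists. In whole limb buds, fewer marked cells and less mark per cell cannot be told apart.

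**Figure D2:**
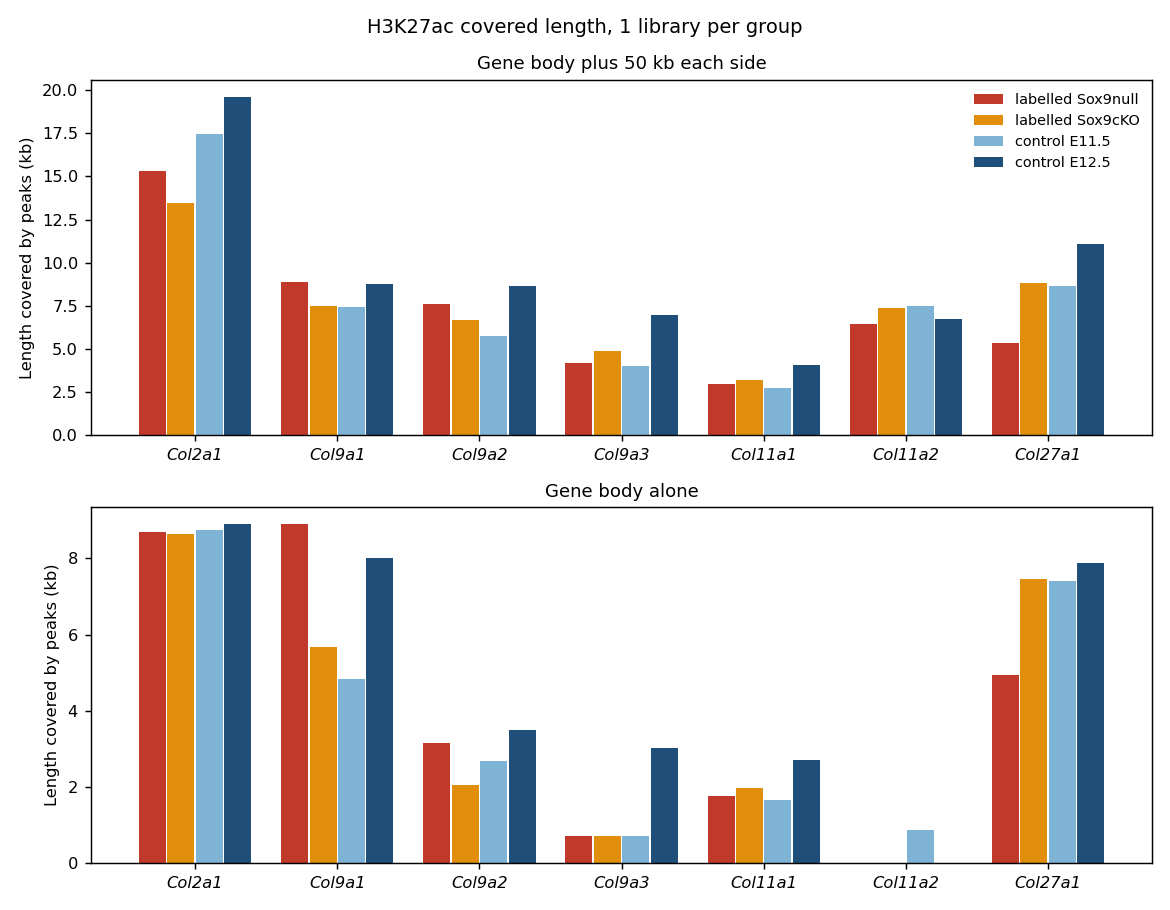
Length covered by H3K27ac peaks in kb for each gene and list, over the gene body plus 50 kb each side (upper panel) and over the gene body alone (lower panel), with 1 library per bar and no error. Over Col2a1 the gene bodies were alike (8.66 to 8.90 kb) and the windows were not (13.5 to 19.6 kb).

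Col9a1 (chromosome 1, 24177589 to 24252738, 75.2 kb long) was acetylated well inside the gene. The peak nearest to its first start was 16.5 kb away in the Sox9null-labelled list, 16.6 kb in the Sox9cKO-labelled list, 16.9 kb in control E11.5 and 16.7 kb in control E12.5, and in each list that peak covered the second start, 17.6 kb from the left end of the gene. A downstream start of Col9a1 is known to give a shorter chain; the table does not say which chain each start gives. The region was 4174 and 2908 bp wide in the Sox9null- and Sox9cKO-labelled lists, against 2863 and 3647 bp in control E11.5 and control E12.5. A second region, 47.8 to 50.1 kb from the left end, was missing from control E11.5 alone, and another, 61.1 to 64.0 kb from it, was in all lists.

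The gene body of Col9a1 was covered over 8.90 kb in the Sox9null-labelled list and 5.68 kb in the Sox9cKO-labelled list, against 4.83 kb in control E11.5 and 8.01 kb in control E12.5. The higher values were thus in the Sox9null-labelled list and control E12.5, and each label group overlapped the other.

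Col9a2 (chromosome 4, 121039566 to 121055325) had a single region at the gene, over its start. The peak reached from -0.49 kb to 3.15 kb, counted from the start, in the Sox9null-labelled list and was 3641 bp wide. In the Sox9cKO-labelled list it was 2056 bp wide and began 1020 bp inside the gene, leaving the start bare. In control E11.5 there were 2 peaks, of 857 bp over the start and of 2133 bp inside the gene, and in control E12.5 1 peak of 3975 bp. Control E11.5 and the Sox9cKO-labelled list thus had the narrower peak at the start, or none. In control E11.5 the peak over the start stood at the 24.5th score percentile. The other shared regions of the window lay at ends of Smap2, a regulator of vesicle transport, and of Zmpste24, which processes prelamin A.

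Col9a3 (chromosome 2, 180598102 to 180622192) had the weakest promoter region of the group. At the left gene end, where mouse Col9a3 starts, the peak was 939 bp wide in the Sox9null-labelled list and 826 bp in the Sox9cKO-labelled list, against 846 bp in control E11.5 and 1903 bp in control E12.5. Its score percentile was 17.4 and 7.59 in the Sox9null- and Sox9cKO-labelled lists, against 44.1 and 54.6 in control E11.5 and control E12.5. Within the gene control E12.5 had 2 further narrow peaks, of 809 and 882 bp, that no other list had, and 3.03 kb of the gene was covered there against 0.696 to 0.699 kb in the other lists. The window also held regions at Ogfr, the opioid growth factor receptor gene, and inside Mrgbp, which encodes a chromatin protein, in all 4 lists.

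Col11a1 (chromosome 3, 114030479 to 114220756, 190 kb long) had the sparsest acetylation. A single region over its start was the only one in a window of 290 kb, and from 0.944% of the window in control E11.5 to 1.40% in control E12.5 was under peaks. The peak was 2969 bp wide in the Sox9null-labelled list and 3209 bp in the Sox9cKO-labelled list, against 2740 bp in control E11.5 and 4073 bp in control E12.5. Each Sox9-deficient value lay between those of the controls. Its score percentile lay between 80.4 and 88.0 in all 4 lists.

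Col11a2 (chromosome 17, 34038919 to 34066684) lies among the genes of the histocompatibility region, and its own body was free of peaks in 3 of the 4 lists. In control E11.5 1 peak of 873 bp, with a score percentile of 27.1, lay 1708 bp from the listed start. The 3 shared regions of its window sat at the ends of Ring1, H2-Ke6, Slc39a7 and Rxrb, genes of a Polycomb protein, a steroid dehydrogenase, a zinc transporter and a retinoid receptor. The covered length of this window, 6.42 and 7.37 kb in the Sox9null- and Sox9cKO-labelled lists and 7.495 and 6.71 kb in control E11.5 and control E12.5, is thus that of its neighbours, apart from the 1 peak in control E11.5.

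Col27a1 (chromosome 4, 63214009 to 63334991, 121 kb long) had 10 regions, the most of the group, of which 2 were in all 4 lists and 6 in a single list. One shared region covered the start, 2905 and 3357 bp wide in the Sox9null- and Sox9cKO-labelled lists against 3002 and 3577 bp in control E11.5 and control E12.5. The other lay 75.8 to 78.3 kb into the gene and was 2457 and 2066 bp wide, against 1669 and 2218 bp. A region 14.3 to 15.9 kb into the gene had a peak in every list but the one labelled Sox9null. Another, -28.6 to -26.0 kb from the left gene end (chr4:63185429-63188041), was 2613 bp wide in control E12.5, at the 64.8th score percentile, and had no peak in any other list. It was the highest-ranked of the 15 single-list regions, and a region 48.1 to 49.7 kb into the gene was in the Sox9cKO-labelled list alone (1611 bp, 49.4th percentile).

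**Figure D3:**
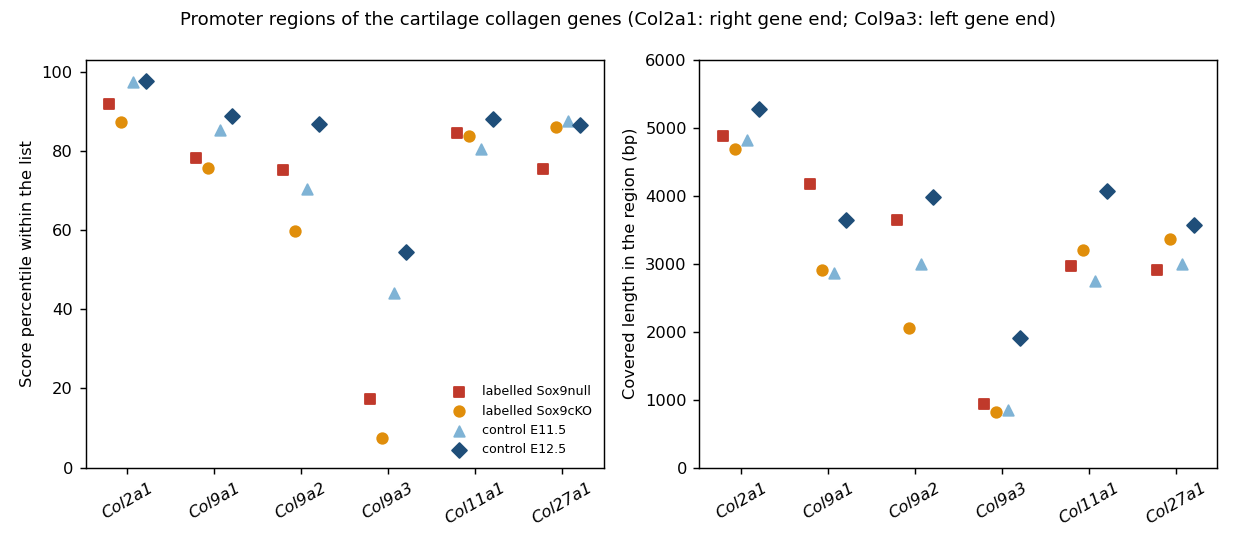
Score percentile within the list (left) and covered length in bp (right) of the 6 promoter regions, with 1 point per list. At Col2a1, Col9a1, Col9a3 and Col27a1 both Sox9-deficient points lie below both control points on the left, and on the right the groups overlap at all 6 genes; the lists differ in length, so a percentile shows a rank and no amount.

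To compare ranks, each list was cut to its 28419 highest-scored peaks, the number in the shortest list. Of the 5 promoter regions that then had a peak in all lists, 3 had a lower rank in each Sox9-deficient list than in either control, and 8.03% of 10035 such regions at gene starts did. None ranked higher in both, against 9.21%. At Col2a1 the percentile was 91.8 and 83.6 in the Sox9null- and Sox9cKO-labelled lists, against 96.7 and 97.3 in control E11.5 and control E12.5. At Col9a1 it was 78.1 and 68.3 against 81.5 and 87.1, and at Col27a1 75.5 and 81.7 against 84.1 and 84.5, in the same order of lists. Both control peaks of Col2a1 had the score 3100, which many peaks share, so their percentile is that of the tie. Peaks at 3100 or above numbered 753 and 2931 in the Sox9null- and Sox9cKO-labelled lists, against 1722 and 1437. A lower rank was not always a lower score. At Col27a1 the score was 657 and 1898, against 1513 and 1433, in the same order. By rank, Col9a2 and Col11a1 overlapped. Set against control E12.5 alone, the count was 5 of 5, and 17% of the regions at gene starts ranked below it in both Sox9-deficient lists. With every deposited peak, Col9a3 was added to the 3 genes, and 4 of 6 promoter regions ranked lower, against 8.5% of 10184, and none higher, against 2.73%; by covered length none was lower (7.11%) or higher (20.1%) in both.

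The order seen by rank was not seen in covered length. By covered length, 0 of the 5 promoter regions were lower in both Sox9-deficient lists, where 6.92% of the regions at gene starts were. None was higher in both, where 20.3% were. Beside control E12.5 alone, the Sox9cKO-labelled peak was narrower at Col2a1 (4691 against 5279 bp), Col9a1 (2908 against 3647 bp) and Col27a1 (3357 against 3577 bp). The Sox9null-labelled peak was narrower than that control at Col2a1 (4886 bp) and Col27a1 (2905 bp) and wider at Col9a1 (4174 bp). Beside control E11.5, widths at these genes went both ways. Among promoter regions of the other gene lists, both Sox9-deficient lists ranked lower at 0 of 16 for other collagens, 7 of 28 for collagen processing genes and 2 of 9 for regulators of cartilage collagens. This comparison was chosen after the values were seen, and it does not depend on how the Sox9-deficient lists are assigned.

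Between the controls, which differ in stage, most collagen genes were covered over more length at E12.5 before scaling. Control E12.5 was above control E11.5 at 6 of the 7 genes, the exception being Col11a2. After scaling to the total covered length, Col2a1 (log2 -0.19) and Col9a1 (-0.11) were also below control E11.5, and Col27a1 was level (-0.0005). Of all genes, 40.3% were below control E11.5 before scaling. The 7 genes had a median log2 ratio of 0.36 against 0.06 over all genes. That median was 0.61 over other collagens, 0.10 over collagen processing genes and 0.34 over regulators of cartilage collagens. A difference of 1.5-fold or more was called at Col9a3 (6.98 kb at E12.5 against 4.02 kb at E11.5, 1.73-fold) and Col9a2 (8.64 against 5.76 kb, a ratio of 1.5003, at the threshold itself), which is 2 of 7 genes with 12.2% of all genes called higher. Col11a1 was just under the threshold, at 1.49-fold. None was called lower, where 7.38% of all genes were. The total covered length of the list was 66.7 Mb at E12.5 and 52.0 Mb at E11.5. After division by it, none of the 7 genes was called higher. The share of all genes called after scaling was not computed. The forelimb gene Tbx5, with its 3.76 kb at E12.5 and 31.7 kb at E11.5, differed between the same lists, so stage and the make-up of the tissue cannot be told apart.

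Over gene bodies alone, 3 members (Col9a1, Col9a3 and Col11a1) were called higher at E12.5, with 13.3% of all genes, and none lower, with 9.69%. These gene body calls were not recomputed after scaling. Control E12.5 was the highest of all 4 lists over 5 of the 7 windows, all but those of Col9a1 and Col11a2, and over 25.9% of all genes.

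At E12.5, going by labels, the Sox9cKO-labelled list was below its control at 6 of 7 genes, again all but Col11a2, where 38.4% of all genes were below it, and no difference reached 1.5-fold. The median log2 ratio was -0.34, against 0.08 over all genes. That median was -0.19 over other collagens, -0.08 over collagen processing genes and -0.14 over regulators of cartilage collagens. The largest differences among the 7 genes were at Col2a1 (13.5 against 19.6 kb, log2 -0.54) and Col9a3 (4.88 against 6.98 kb, log2 -0.52). Over all genes 7.89% were called lower and 13.1% higher. Restricted to gene bodies, Col9a2 (2.06 against 3.49 kb) and Col9a3 (0.699 against 3.03 kb) were called lower, 2 of 6 genes with enough cover, beside 9.19% of all genes, and none was called higher, beside 14.9%.

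At E11.5, going by labels, the Sox9null-labelled list was above its control at 4 genes and below it at 3, and after scaling Col9a3 and Col11a1 were below it too. Col27a1, with 5.36 kb against 8.65 kb in control E11.5 (log2 -0.69), was called lower, where 10.2% of all genes were, and none was called higher, where 7.96% were. The call was lost with the upper 50% of each list (log2 -0.10), with equally many top peaks (-0.31), with 5 kb each side or without peaks at other genes' ends (-0.57 in both), and with the lists exchanged (0.03). The gene body of Col27a1 had 4.95 kb in the Sox9null-labelled list against 7.40 kb, a difference just under the threshold. Over gene bodies Col9a1 was called higher, with 8.90 against 4.83 kb, beside 9.53% of all genes, and none lower, beside 12.7%. The 3 comparisons share control lists and are not independent of each other.

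With the Sox9-deficient lists assigned as in their file names, the Sox9cKO-labelled list stands against control E11.5 and the Sox9null-labelled list against control E12.5. Then no member was called in either direction at E11.5, where 1.9% of all genes were called lower and 9.38% higher, and log2 ratios ran from -0.38 at Col2a1 to 0.28 at Col9a3. At E12.5 the genes called lower were Col9a3 (4.198 against 6.98 kb) and Col27a1 (5.36 against 11.1 kb), with 8.28% of all genes, and none was called higher, with 2.59%. Over gene bodies none was called at E11.5 (3.68% of all genes lower and 12.2% higher), and at E12.5 Col9a3, Col11a1 and Col27a1 were called lower (10.7%) and none higher (3.48%). Col2a1 was lower than its control under either assignment and at either stage. That follows from the order of the lists given above and is no further result. Col9a1 and Col9a2 were covered over less in the Sox9cKO-labelled list and control E11.5 than in each of the other lists, an order that 20.2% of all genes had, and Col11a2 over more, as 29.5% had.

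**Figure D4:**
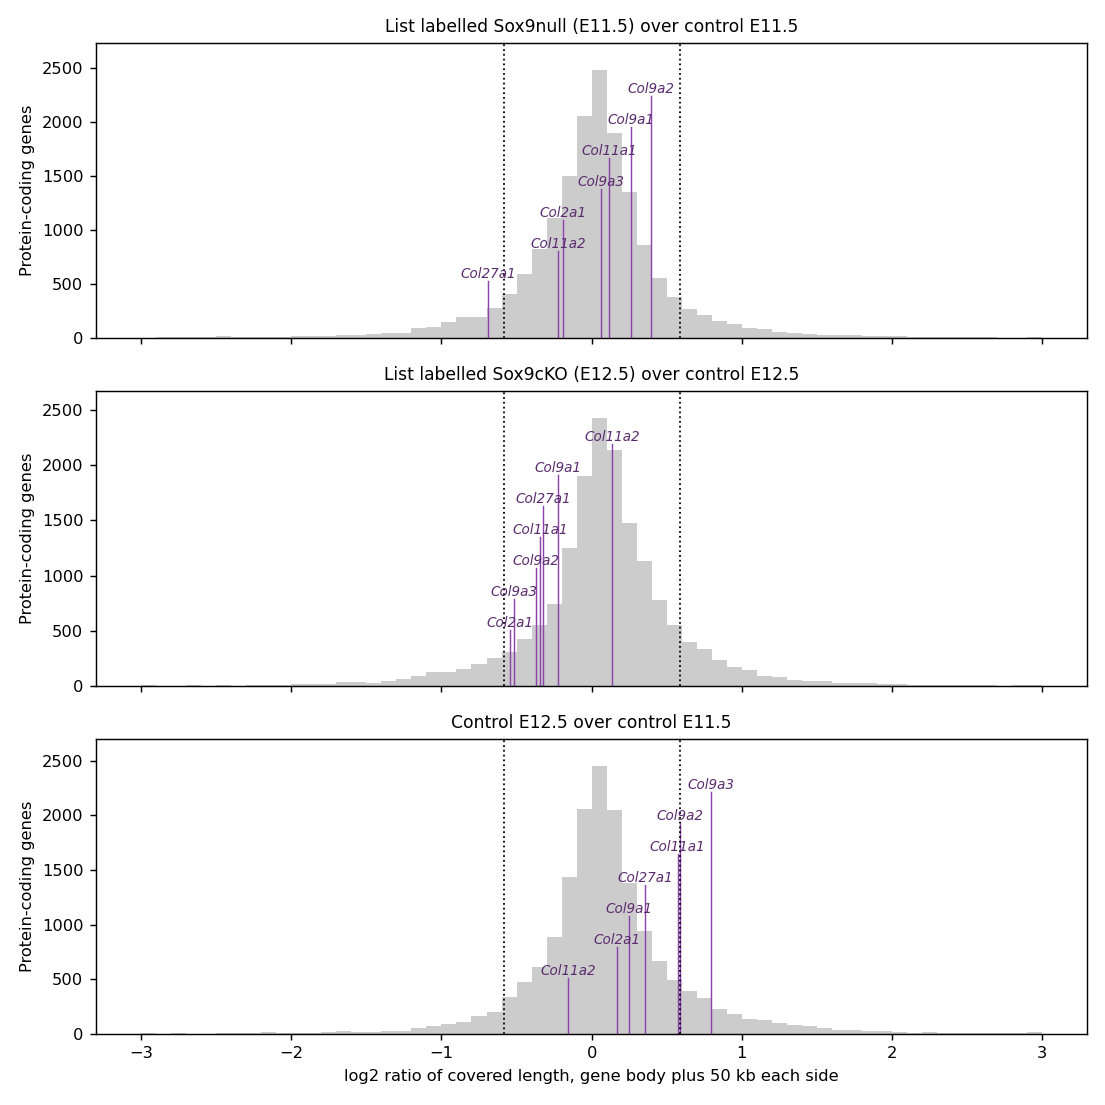
Distribution over all protein-coding genes of the log2 ratio of covered length, gene body plus 50 kb each side, for each of 3 comparisons, with the 7 collagen genes as labelled lines and dotted lines at 1.5-fold; values beyond the axis are drawn at its ends. In the middle panel all members but Col11a2 lie below 0, and in the lower panel all but Col11a2 lie above it. Scaling to the total covered length moves Col2a1 and Col9a1 below 0 there and brings Col27a1 level (-0.0005).

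Other collagen genes, which belong to bone, tendon, vessel wall and skin as well, were called in these lists as follows. Of 28 with enough cover, 14 were called higher and 1 lower at E12.5 than at E11.5 in controls, 10 higher and 3 lower in the Sox9null-labelled list than in control E11.5, and of 27, 2 higher and 8 lower in the Sox9cKO-labelled list than in control E12.5. Windows of 3 pairs among them overlap and share peaks. Of all genes, 12.2% were called higher and 7.38% lower between the controls. In the Sox9null-labelled list against control E11.5 it was 7.96% and 10.2%, and in the Sox9cKO-labelled list against control E12.5 13.1% and 7.89%. The same shares apply to the gene lists that follow. No counts after scaling were made for these gene lists. Col1a2, a chain of type I collagen, had 31.9 and 26.7 kb in the Sox9null- and Sox9cKO-labelled lists, against 21.2 and 33.3 kb in control E11.5 and control E12.5. Col12a1, a chain of fibril-associated type XII collagen, had 13.5 and 6.69 kb against 4.95 and 12.8 kb, and Col6a3 17.2 and 13.6 kb against 9.25 and 20.2 kb. Col18a1, of basement membranes, ran the other way between the Sox9cKO-labelled list and its control, with 23.3 against 14.4 kb.

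Genes of collagen processing gave 5 higher and 3 lower of 30 in the Sox9null-labelled list than in control E11.5, 2 higher and 7 lower in the Sox9cKO-labelled list than in control E12.5, and 6 higher and 1 lower between the controls. Loxl2, a lysyl oxidase that crosslinks collagen, had 20.5 and 14.01 kb in the Sox9null- and Sox9cKO-labelled lists, against 13.9 and 27.2 kb in control E11.5 and control E12.5. Creb3l2, a factor that drives secretion of matrix in chondrocytes, had 30.6 and 19.5 kb against 18.3 and 30.03 kb. Mia3, which loads collagen for export, had 5.14 and 9.01 kb against 8.87 and 5.06 kb, the opposite order.

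Among 14 regulators of cartilage collagens the counts were 2 higher and 1 lower of 12, 0 higher and 4 lower of 12, and 4 higher and 1 lower of 13 in the same 3 comparisons. Sox6, a partner of SOX9, had 33.5 and 22.5 kb in the Sox9null- and Sox9cKO-labelled lists, against 26.3 and 53.3 kb in control E11.5 and control E12.5. Nfib, a nuclear factor I gene, had 45.5 and 24.6 kb against 18.8 and 50.03 kb, and Arid5b, a SOX9 coactivator, 39.1 and 27.6 kb against 19.99 and 34.9 kb.

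For each member, the gene outside its window whose covered length was split over the 4 lists most alike was looked up among genes with at least 10 kb summed over the lists, by the largest difference in share over 4 lists. For Col2a1 it was Stt3b, with 6.67 and 5.52 kb in the Sox9null- and Sox9cKO-labelled lists against 7.25 and 8.39 kb in control E11.5 and control E12.5. For Col27a1 it was Wdfy2, and for Col9a3 Gnrh1. Within 1 percentage point of share lay 6 genes for Col2a1 and 1 for Col27a1, but 116 for Col9a1 and 238 for Col11a2, out of 14266 to 14281 genes compared.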

How the data were processed

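H3K27ac peak lists of 4 mouse limb bud libraries were used, as the authors deposited them. Each gives peak positions and a score per peak. Per the peak names in the deposited lists the caller was MACS, and per the submitters' processing notes the build is mm10, with CASAVA 1.8 and deepTools among the tools. The caller's version and settings, the aligner and the use of input were not given in the sources used here. No header names the deposited score. It starts at 50.01 and has many ties at 3100. Apart from the scores printed for Col27a1, it was used within each list alone, to order peaks or set a threshold. Each sample had its own list.

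Gene positions came from a RefSeq table of GRCm38.p6 (21887 protein-coding genes, sex chromosomes included), and starts from its promoter table. Covered length is the bp under peaks over the gene body plus 50 kb each side. A gene was called at 1.5-fold or more, if 1 kb or more was covered in either list. Regions merged peaks of the 4 lists that overlapped by 1 bp. Scripts were tested on simulated data. The named genes are all 7 members, genes at whose ends peaks of the windows lie, the largest differences of each further list, and the most alike gene of each member; Tbx5 and Sox9 check labels, and Mrgbp, whose body a shared peak crosses, was chosen after its values were seen. Members, lists and tests were chosen with earlier results of these data known. Alternatives were stricter lists, other windows, folds, merging and start rules, scaling, and exchanged lists. Python 3.11.15, numpy 2.4.6, pandas 2.3.3 and matplotlib 3.10.9 were used.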

Additional observations from a re-analysis of the deposited data

Results flagged for a closer look

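At 5 of the 7 genes the difference in covered length between Sox9-deficient and control lists had opposite signs at the 2 stages by label, E11.5 and E12.5; with 1 library per group this was not tested. Of all genes, 20.2% had the Sox9cKO-labelled list and control E11.5 both below the other lists, and 29.5% had both above. Either order gives opposite signs at the 2 stages, so such signs were common among all genes. For Col9a1 the log2 ratio was 0.26 at the earlier stage and -0.23 at the later, a gap of 0.49. It was 0.40 and -0.37 for Col9a2 (0.77), 0.06 and -0.52 for Col9a3 (0.58), 0.12 and -0.34 for Col11a1 (0.46), and -0.22 and 0.14 for Col11a2 (-0.36). With the Sox9-deficient lists exchanged, the signs were opposite at Col9a2 (0.21 and -0.19), Col9a3 (0.28 and -0.73) and Col11a1 (0.23 and -0.46), and the same at Col9a1 and Col11a2. After scaling by list totals, Col9a3 (-0.14 and -0.37) and Col11a1 (-0.08 and -0.20) had the same sign at both stages, which left 3 genes with opposite signs.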

How the results depend on the processing

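No paired analysis was possible because each group had 1 library and no test was run. Of 90 recomputed counts, 26 differed from the reported one by more than 1.5 times; the cause was not tested except where the setting itself leaves peaks or regions out. Against the E11.5 control, the Sox9null-labelled list had 1 gene called lower; this was 0 with the upper 50% of each list, with equally many top peaks, with the lists exchanged, with 5 kb each side, without peaks at ends of other genes, and at 2-fold. With the lists exchanged Col27a1 had a log2 ratio of 0.0317, the opposite sign. The count called higher was 1 in place of 0 with 5 or 20 kb each side, without peaks at other genes' ends, and at a lower fold. Against the E12.5 control, the Sox9cKO-labelled list had 0 genes called lower; this was 2 with the upper 50%, 1 with equally many top peaks, 2 with the lists exchanged and with 5 or 20 kb each side, 3 without peaks at other genes' ends and 5 at a lower fold. Between controls the 2 genes called higher at E12.5 became 0 after scaling and at 2-fold, and 4 at a lower fold. Apart from the exchanged lists, the share of all genes called under these alternatives was not computed. Whether the collagen counts stand out under those settings is therefore unknown. The 40 regions became 20 with the upper 50%. The region in both controls alone became 0 with equally many top peaks, with 20 kb each side, and where peaks had to cover 50% of a region. The promoter peak in all 4 lists, at 5 genes, was at 4 to 6 under all alternatives run. The 3 promoter regions that ranked lower became 5 without the E11.5 control, 0 by covered length, and 3 or 4 under the other alternatives run. Of 141 log2 ratios of single genes under alternatives, 14 changed sign. Among the 90 counts and the 141 ratios are some that exchanging the Sox9-deficient lists cannot change, such as those between the controls. The depth in reads is unknown.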
